A study of Mus musculus with 4 samples.

Results

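Inner medullary collecting duct (IMCD) cells that had been treated with Cre were compared with untreated floxed IMCD cells, both kept in serum-replete medium. The comparison took every gene locus with at least 1 FPKM (fragments counted on a transcript, scaled to its length and to the size of the library) in either library, which left 12635 of 37981 deposited loci. The TβRII-/- cells (Tgfbr2-/- in the labels) had been treated with adeno-Cre, and the TβRII fl/fl cells carried the same floxed Tgfbr2 and received no Cre. Both came from C57B/l mice with floxed Tgfbr2, were immortalized with psv40, and were grown with serum. Each condition was 1 library, so no test was possible and all differences describe these libraries. Only the TβRII-/- cells met the adenovirus and Cre, so an effect of either cannot be told apart from that of the deletion. Each library is 1 population of a cultured line, and the sources used here do not say whether either population grew from a single clone. A further pair of libraries came from the same lines after 4 days without serum, and its values are set beside those of the serum-replete pair in places.

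TβRII is the receptor that binds TGF-β and then recruits the type I receptor, which phosphorylates SMAD2 and SMAD3. In the kidney the pathway is best known for raising matrix genes in injury and fibrosis, and it also restrains the growth of epithelial cells. Collecting duct cells fine-tune the excretion of water and salt, and they secrete and sense many of the ligands described here.

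Tgfbr2 itself was 57.0 FPKM in Cre-treated cells and 163 FPKM in floxed cells, a log2 ratio of -1.50. As a value of the entire gene it cannot show whether the floxed exon was lost. Ratios here are log2 of (FPKM + 1) in Cre-treated over (FPKM + 1) in floxed cells, which understates the difference of low genes, and 2-fold in either direction was the limit for a call. Reads were 50 bp long. By the steps in the lowest values, 1 read in a transcript of 2 kb was worth about 0.0123 FPKM in the Cre-treated library and about 0.0155 FPKM in the floxed library. The other receptors of the family differed less. Tgfbr1, the type I partner, was 13.6 FPKM in Cre-treated and 12.2 FPKM in floxed cells, and of 10 measured receptors of the superfamily Tgfbr2 alone passed 2-fold. Smad3 was 38.4 FPKM in Cre-treated and 103 FPKM in floxed cells, a log2 ratio of -1.41, whereas the 8 other measured SMAD, Ski and Skil genes stayed under 2-fold.

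Both libraries held several markers of renal tubular epithelium and lacked others, and neither had the full profile of a collecting duct principal cell. Pax8, Pax2 and Cdh16, which mark tubular epithelium, were 128, 40.5 and 147 FPKM in Cre-treated cells, against 252, 75.6 and 298 FPKM in floxed cells. The collecting duct factors Hoxb7 and Tfcp2l1 were 35.1 and 94.0 FPKM in Cre-treated cells and 54.0 and 64.7 FPKM in floxed cells. Aqp2, the vasopressin-regulated water channel that defines principal cells, was listed at 0 in both libraries, and the vasopressin receptor Avpr2 was under 0.2 FPKM in both. So were Aqp3, Aqp4, Scnn1b, Elf5 and Calb1, and 5 of 12 principal cell markers reached 1 FPKM. Of 18 tubular epithelium markers, 12 reached 1 FPKM, and of these 2 were higher and 8 lower in Cre-treated cells. The others, Epcam, Grhl2, Cldn7, Cldn8, Lhx1 and Emx1, were under 0.5 FPKM in both libraries. Cdh1 (E-cadherin) was 0.0423 FPKM in Cre-treated and 1.25 FPKM in floxed cells, so neither library had much of this epithelial cadherin. Endothelial markers were all under 0.1 FPKM in both libraries. Among 8 fibroblast markers Col1a1 alone reached 1 FPKM, at 0.587 FPKM in Cre-treated and 2.12 FPKM in floxed cells. The leukocyte markers summed to 11.99 FPKM in Cre-treated and 9.35 FPKM in floxed cells, nearly all of it Cd68, a lysosomal gene that other cells express too. Smooth muscle and pericyte markers summed to 664 FPKM in Cre-treated and 2249 FPKM in floxed cells, carried by Acta2, Tagln and Cnn1, while Myh11, Des and Rgs5 were under 0.2 FPKM in both. Proximal tubule markers summed to 7.71 FPKM in Cre-treated and 53.7 FPKM in floxed cells, with Aqp1 and Ggt1 making up most of the sum in floxed cells and Lrp2, at 5.61 FPKM in Cre-treated and 2.18 FPKM in floxed cells, most of it in Cre-treated cells. Slc34a1, Hnf4a and Slc22a6 were listed at 0 in both. In such bulk libraries fewer cells with a transcript and less of it in each cell cannot be told apart, and the part of these markers in the differences that follow was not tested.

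Of the 12635 loci, 884 (7%) were at least 2-fold higher and 1408 (11.1%) at least 2-fold lower in Cre-treated cells, and the median log2 ratio was -0.03. Among them, 60 were at least 16-fold higher and 88 at least 16-fold lower. Protein-coding genes with a row of their own in the deposited table numbered 10939, of which 674 (6.16%) were higher and 1170 (10.7%) lower. Since the deposited coordinates can span neighbouring genes, 1907 of them carry the coordinates of another one as well. Another 320 loci past the filter were short RNA genes, whose FPKM is poorly determined and is not read here.

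The lowest ratio belonged to Gpx3, which encodes the secreted plasma glutathione peroxidase made mainly by kidney tubules. Gpx3 was 5.52 FPKM in Cre-treated cells and 34166.5 FPKM in floxed cells, a log2 ratio of -12.36. It ranked first of all protein-coding genes in the floxed library, where it made up 5.33% of their summed FPKM, and 8196th in the Cre-treated library. Krt8, the type II keratin of simple epithelia, was 0.229 FPKM in Cre-treated and 251 FPKM in floxed cells. Dkk3, a secreted member of the Dickkopf family, was 0.281 FPKM in Cre-treated and 221 FPKM in floxed cells. Krt8 and Dkk3 were thus abundant in floxed cells and near the floor in Cre-treated cells. The adhesion G protein-coupled receptor gene Gpr123 was 0.139 FPKM in Cre-treated and 112 FPKM in floxed cells. Serpina6, the corticosteroid-binding globulin, was 1.93 FPKM in Cre-treated and 140.5 FPKM in floxed cells. Cldn2, which forms the cation pores of leaky tight junctions, was 0.274 FPKM in Cre-treated and 55.2 FPKM in floxed cells.

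Among such protein-coding genes with a usable estimate, the highest ratio was that of S100a7a, a psoriasin-related calcium-binding gene of the epidermal differentiation complex. It was 172 FPKM in Cre-treated cells and 0.853 FPKM in floxed cells, a log2 ratio of 6.54. Hoxd13, the homeobox gene at the distal end of the HoxD cluster, was 32.8 FPKM in Cre-treated and 0.0464 FPKM in floxed cells. Pdpn (podoplanin), a mucin-type surface glycoprotein, was 97.8 FPKM in Cre-treated and 3.499 FPKM in floxed cells. All of these were low in floxed cells and well expressed in Cre-treated cells. Sgce (epsilon-sarcoglycan), a maternally imprinted gene, was 29.1 FPKM in Cre-treated and 0.711 FPKM in floxed cells, and its imprinted neighbour Peg10 was 5.11 FPKM in Cre-treated and 0.00611 FPKM in floxed cells. Cacng8 also stood among the highest, at 30.5 FPKM in Cre-treated and 0.221 FPKM in floxed cells, but was under 0.2 FPKM in both serum-starved libraries. The ranking by ratio also took in Sept2, Sept7, Sept9, Epb4.1l3, Rif1 and 9530068E07Rik, which the deposited tables mark as failed estimates in serum-replete medium and which are listed at 0 in 1 library. It also took in the gene models Gm17364, Gm11084, Gm17571 and Gm21961, each listed at 0 in 1 library. No difference is read from these 10.

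**Figure D1:**
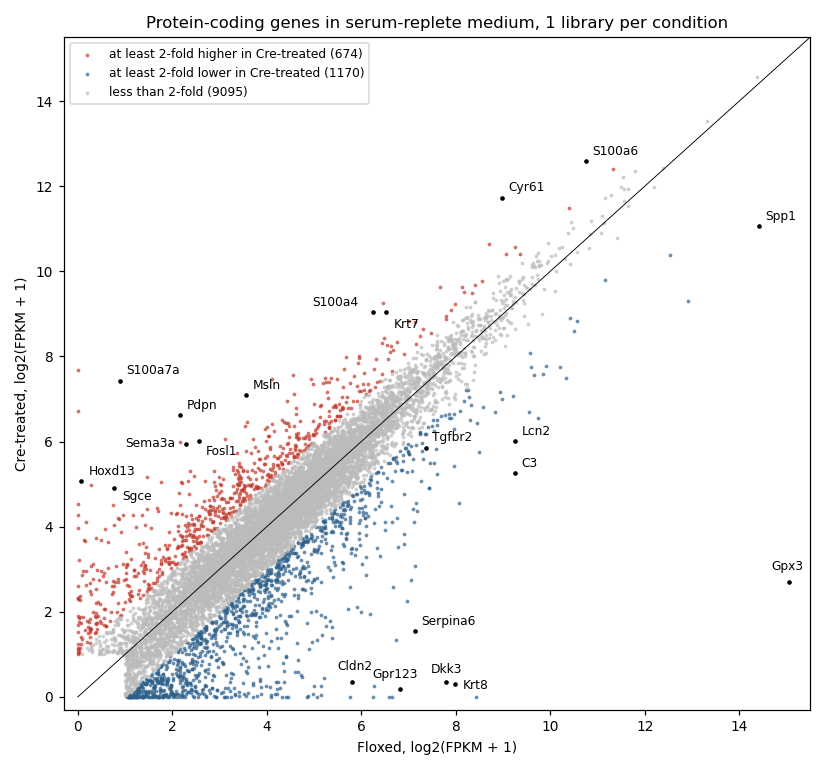
Log2(FPKM + 1) of protein-coding genes in Cre-treated cells on the vertical axis against floxed cells on the horizontal axis, 1 point per gene, with the line of equal values. Gpx3 lies at the far right near the bottom (5.52 FPKM in Cre-treated and 34166.5 FPKM in floxed cells) and S100a7a and Hoxd13 at the upper left, and some points on the axes are failed estimates listed at 0.

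Genes were grouped into 111 families by symbol, in 4 classes. The filter keeps a low gene only through the library where it is higher, which widens the medians of families. Of 19 family medians at least 1 in size, 2 stayed so without the filter. Secreted genes differed most often. Of 229 measured, 100 (43.7%) were lower and 30 (13.1%) higher in Cre-treated cells, against 11.1% and 7% of all loci, and their median log2 ratio was -0.79. Of 532 membrane genes, 142 (26.7%) were lower and 38 (7.14%) higher, with a median of -0.26. Of 635 transcription factor genes, 78 (12.3%) were lower and 26 (4.09%) higher, close to the share of all loci, with a median of -0.16. The intracellular families held 426 measured genes, of which 56 (13.1%) were higher and 64 (15%) lower. In the serum-starved pair, which was normalized on its own, 54 of 211 secreted genes were lower and 43 higher, with a median of -0.03, against 6.64% of all loci lower and 8.02% higher there. Of the membrane genes in that pair, 88 of 536 were lower and 79 higher, with a median of 0.14. Lower genes thus outnumbered higher ones by less in that pair, and no test of one medium against the other was possible.

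**Figure D2:**
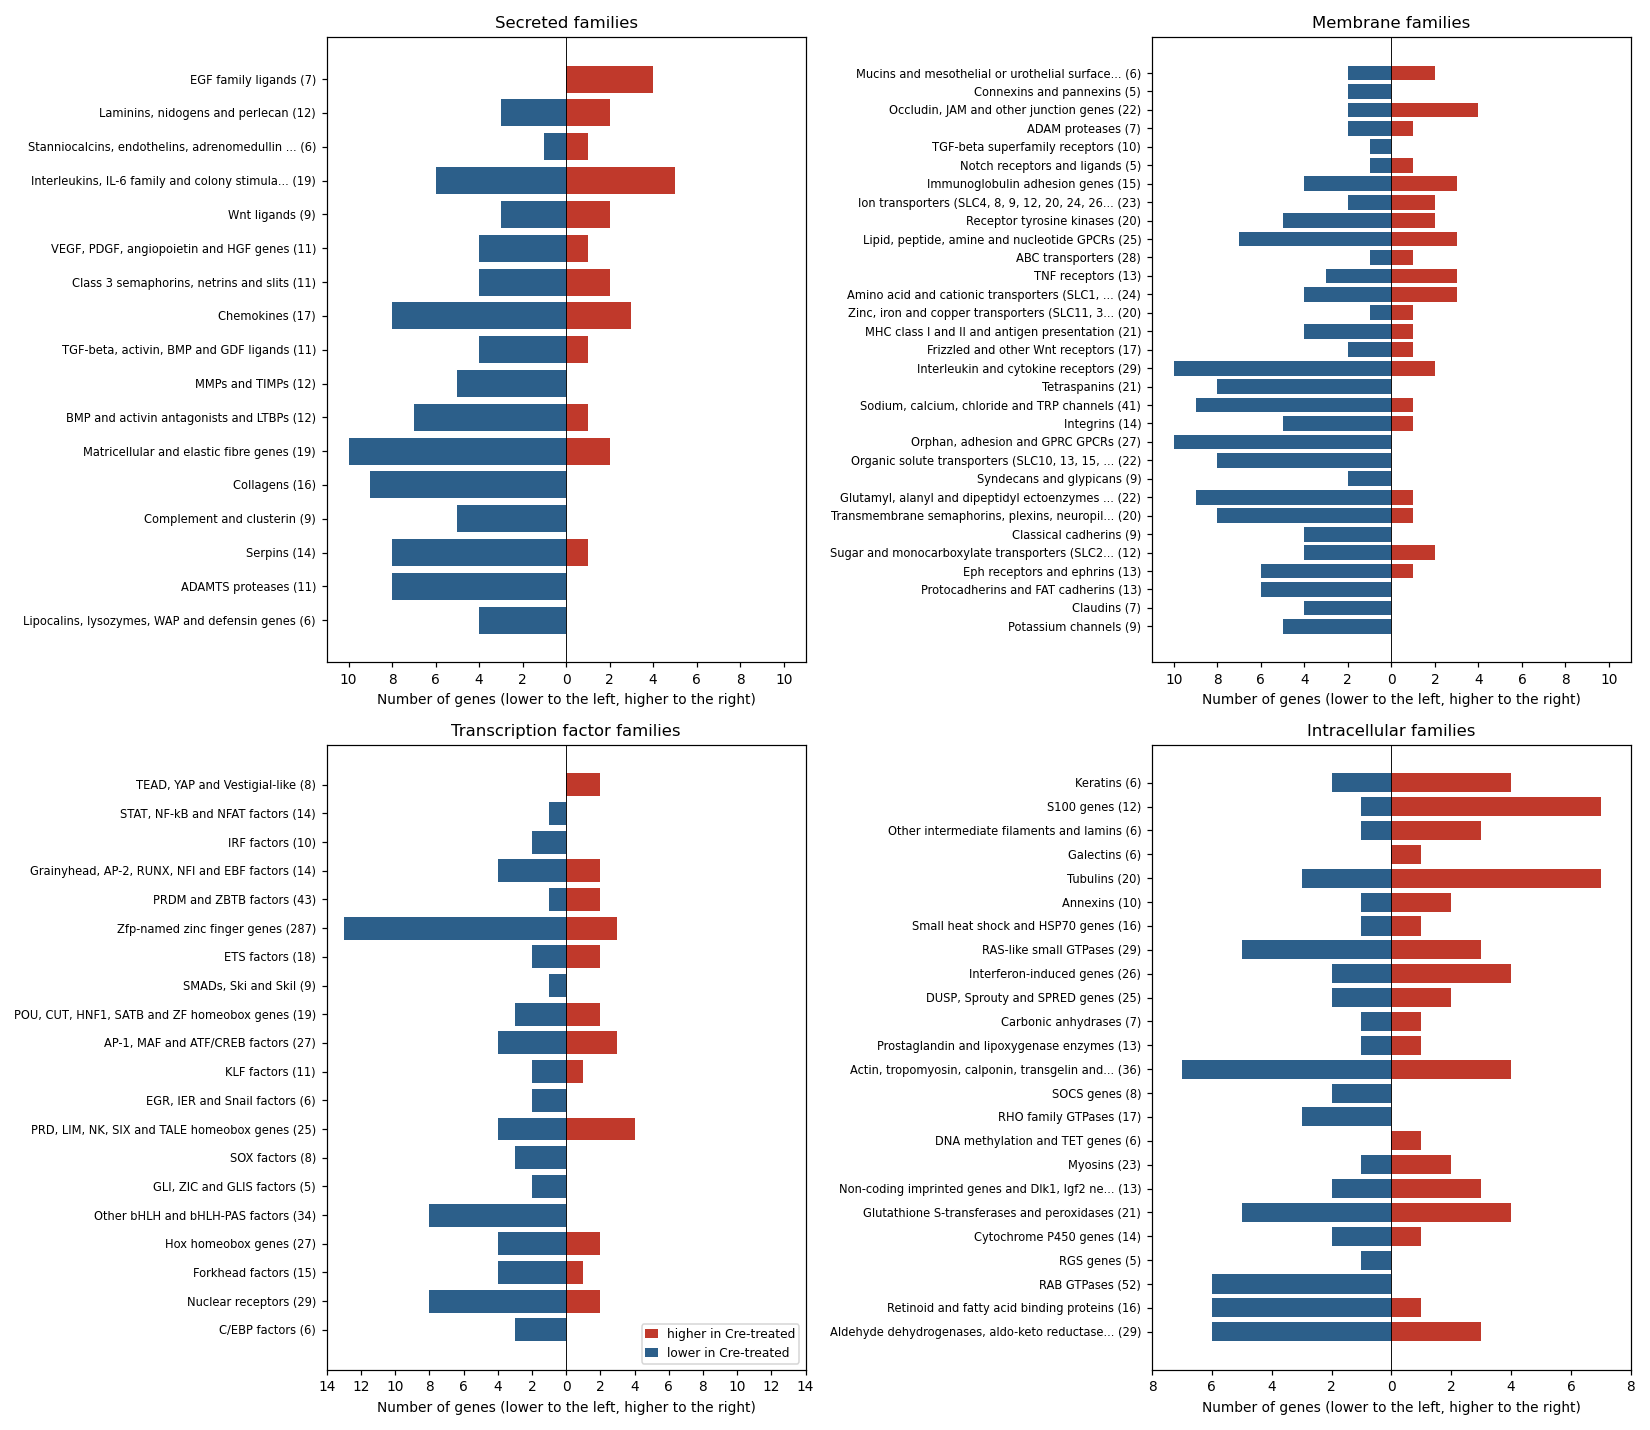
Number of genes at least 2-fold higher (bars to the right) and at least 2-fold lower (bars to the left) in Cre-treated than in floxed cells in serum-replete medium, for each family with at least 5 measured genes, ordered by median ratio, with the number measured in brackets. Among secreted families the bars run mostly to the left, as for the collagens (9 of 16 lower) and ADAMTS proteases (8 of 11 lower). EGF family ligands (4 of 7 higher) run to the right. Among intracellular families S100 genes run mostly to the right (7 of 12 higher and 1 lower).

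Matrix genes were lower in Cre-treated cells wherever they passed 2-fold in the collagen family. Of 16 measured collagens, 9 were lower and none higher, against 11.1% of all loci lower and 7% higher, with a median log2 ratio of -1.22. Some, such as Col6a2 and Col8a1, passed the filter of 1 FPKM only through the floxed library, so the filter itself lowers the family median. The same holds for the medians of matricellular genes, ADAMTS proteases, serpins and potassium channels below. Col6a1 and Col6a2, neighbouring genes whose products join the same microfibrils, were 1.44 and 0.439 FPKM in Cre-treated cells, against 29.9 and 25.6 FPKM in floxed cells. The basement membrane pair Col4a1 and Col4a2 was 99.4 and 82.5 FPKM in Cre-treated cells and 249 and 194 FPKM in floxed cells. Col4a3 and Col4a4, the chains of mature kidney basement membrane, were 19.5 and 15.2 FPKM in Cre-treated cells and 64.3 and 45.3 FPKM in floxed cells. So the network collagens were lower but remained expressed, while the collagen VI chains were under 2 FPKM. Nid1, which links laminin to collagen IV, was 0.187 FPKM in Cre-treated and 30.8 FPKM in floxed cells. Laminins went both ways. Lama4 was 0.00435 FPKM in Cre-treated and 5.61 FPKM in floxed cells. Lamb3, a chain of the laminin under stratified epithelia, was 14.6 FPKM in Cre-treated and 1.92 FPKM in floxed cells.

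The strand of the libraries is not stated, so reads of a gene and of a locus that overlaps it cannot be told apart, which touches 71 of the 497 genes selected for description. Of all genes given values here, Col4a1 and Col4a2, which carry the same coordinates, and Col4a3, Ltbp2, Bmp4, Il34, Ctgf, Cldn19, Dsg2, Itga7, Dlk2, Pvr, Hoxb2, Tfap2a, Irx3, Hif1a, S100g, Pax2, Pax8 and Tagln overlap another expressed locus.

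Matricellular and elastic fibre genes were lower in 10 of 19 cases and higher in 2, with a median of -1.17. Spp1 (osteopontin), an abundant phosphoprotein of injured tubules, was 2140.0 FPKM in Cre-treated and 21791 FPKM in floxed cells. Postn (periostin) was 0.147 FPKM in Cre-treated and 17.6 FPKM in floxed cells. Tgfbi, named for its induction by TGF-β, was 0.321 FPKM in Cre-treated and 4.45 FPKM in floxed cells. All 3 were several-fold lower in Cre-treated cells. On the higher side, the fibulin Efemp1 was 257 FPKM in Cre-treated and 61.0 FPKM in floxed cells, and Mfap5 was 4.04 FPKM in Cre-treated cells and listed at 0 in floxed cells. Of the CCN genes, both well-known YAP targets were abundant. Cyr61 was 3402 FPKM in Cre-treated and 506 FPKM in floxed cells, a log2 ratio of 2.75, and Ctgf was 1220.2 FPKM in Cre-treated and 846 FPKM in floxed cells, under 2-fold. Wisp2, of the same family, was 0.873 FPKM in Cre-treated and 13 FPKM in floxed cells.

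Enzymes that remodel the matrix, and serpins, were lower more often than higher in most families, against 11.1% of all loci lower and 7% higher. Of 11 measured ADAMTS proteases, which cleave proteoglycans, 8 were lower and none higher, with a median of -1.40. Adamts1 was 90.4 FPKM in Cre-treated and 316 FPKM in floxed cells, and Adamts5 was 5.89 FPKM in Cre-treated and 32.4 FPKM in floxed cells. Of 12 MMP and TIMP genes, 5 were lower and none higher. The gelatinase gene Mmp2 was 1.23 FPKM in Cre-treated and 17.9 FPKM in floxed cells, and Mmp7 (matrilysin) was 0.0850 FPKM in Cre-treated and 7.38 FPKM in floxed cells. Serpins, a family named for inhibitors of serine proteases, were lower in 8 of 14 cases and higher in 1, with a median of -1.32. The corticosteroid-binding globulin Serpina6 is among the lower ones, so this is not a count of inhibitors of matrix enzymes. The protease gene Plau (urokinase), which activates plasminogen, was 597 FPKM in Cre-treated and 251 FPKM in floxed cells. Among lysyl oxidases, which cross-link collagen, Loxl4 was 65.6 FPKM in Cre-treated and 12.2 FPKM in floxed cells. Lox was 51.3 FPKM in Cre-treated and 127 FPKM in floxed cells, and Loxl2 was 10.8 FPKM in Cre-treated and 33.7 FPKM in floxed cells.

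Of 11 ligands of the TGF-β superfamily, 4 were lower and 1 higher. Bmp6, a ligand that signals through SMAD1 and SMAD5, was 2.80 FPKM in Cre-treated and 34.3 FPKM in floxed cells, and Bmp4 was 0.573 FPKM in Cre-treated and 5.78 FPKM in floxed cells. Gdf15, a stress-induced ligand, was the higher one, at 375 FPKM in Cre-treated and 177 FPKM in floxed cells. Tgfb1, Tgfb2 and Tgfb3 were all under 2-fold. Of 12 genes of BMP and activin antagonists and of latent TGF-β-binding proteins, 7 were lower and 1 higher. Fst (follistatin), which traps activins, was 22.5 FPKM in Cre-treated and 268 FPKM in floxed cells, and Ltbp2 was 0.0402 FPKM in Cre-treated and 34.4 FPKM in floxed cells. Nog (noggin), which traps BMPs, was the exception, at 14.5 FPKM in Cre-treated and 0.485 FPKM in floxed cells. The BMP antagonists Sostdc1 and Nbl1 were lower, at 2.82 and 26.5 FPKM in Cre-treated cells, against 11.98 and 66.5 FPKM in floxed cells.

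EGF family ligands formed the secreted family with the highest median, 1.43, with 4 of 7 members higher and none lower. Tgfa was 6.75 FPKM in Cre-treated and 0.0864 FPKM in floxed cells, and Ereg (epiregulin) was 4.79 FPKM in Cre-treated and 0.307 FPKM in floxed cells. Areg (amphiregulin) was 1.97 FPKM in Cre-treated and 0.105 FPKM in floxed cells. Hbegf did not share in this and differed by under 2-fold. Tgfa, Ereg and Areg passed the filter of 1 FPKM only through the Cre-treated library, so the filter itself raises the family median. The neighbouring semaphorin genes Sema3a and Sema3e, secreted guidance cues, were both higher. Sema3a was 60.6 FPKM in Cre-treated and 3.91 FPKM in floxed cells, and Sema3e was 35.1 FPKM in Cre-treated and 1.76 FPKM in floxed cells. Of 9 Wnt ligands, 2 were higher and 3 lower. Wnt7a was 82.0 FPKM in Cre-treated and 10.7 FPKM in floxed cells, and Wnt16 was 22.4 FPKM in Cre-treated and 142 FPKM in floxed cells. These 2 were the most abundant called members, and they changed places.

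Secreted genes of inflammation and innate defence were split between many lower and a few higher genes. C3, the central complement component, was 37.2 FPKM in Cre-treated and 613 FPKM in floxed cells, and 5 of 9 complement genes were lower with none higher. Lcn2 (NGAL), an iron-carrier protein used as a marker of tubular injury, was 63.2 FPKM in Cre-treated and 613 FPKM in floxed cells. Of 17 chemokines, 8 were lower and 3 higher. Ccl2, which attracts monocytes, was 115 FPKM in Cre-treated and 320.3 FPKM in floxed cells, and the neutrophil chemokine Cxcl5 was 0.0218 FPKM in Cre-treated and 12.8 FPKM in floxed cells. The interferon-inducible Cxcl10 was instead higher, at 52.1 FPKM in Cre-treated and 9.41 FPKM in floxed cells. Among 19 interleukins and colony stimulating factors, 5 were higher and 6 lower. Csf1, the growth factor of macrophages, was 313 FPKM in Cre-treated and 141 FPKM in floxed cells. Il34, the other ligand of the same receptor, was 21.4 FPKM in Cre-treated and 82.5 FPKM in floxed cells.

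**Figure D3:**
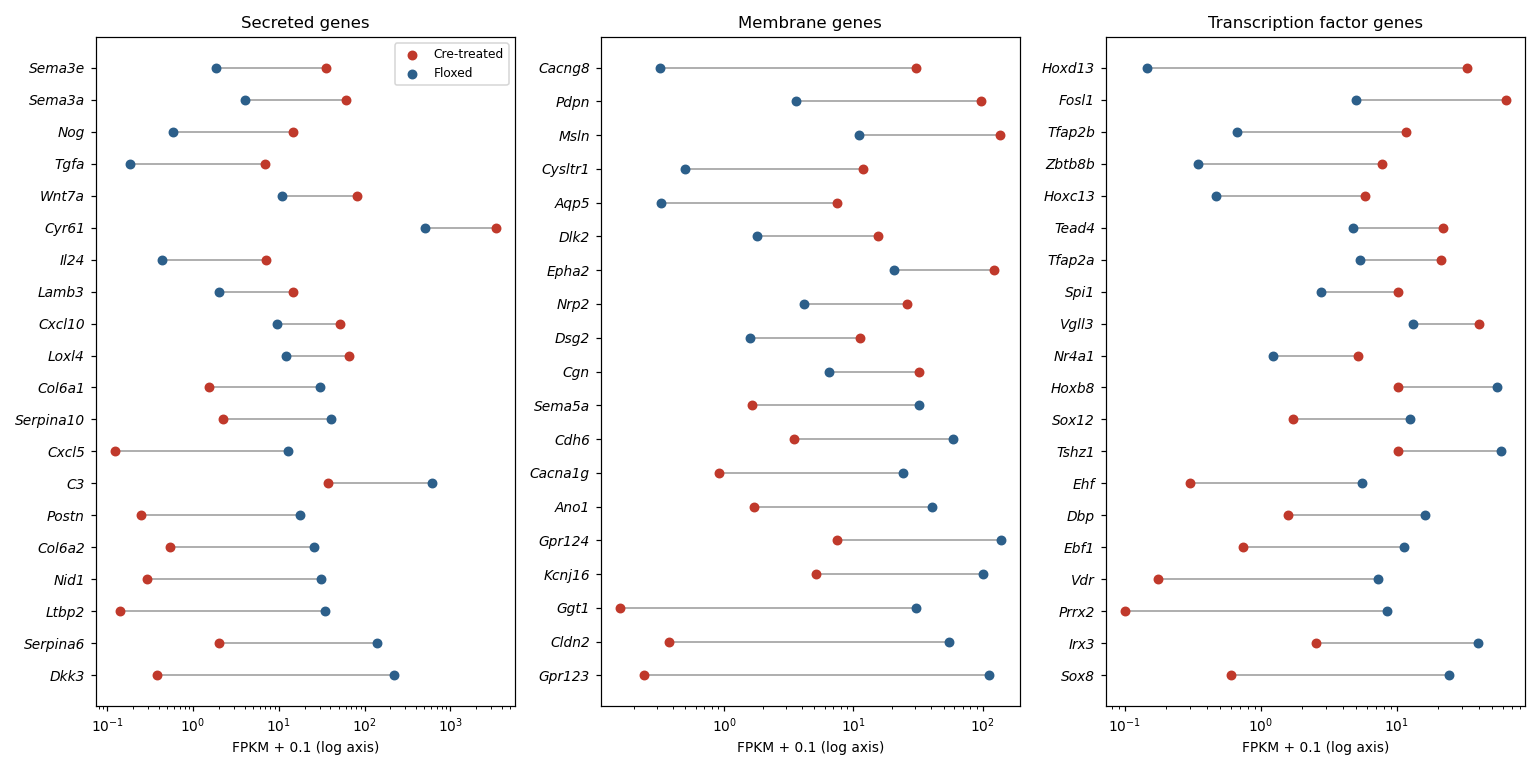
FPKM + 0.1 on a log axis in Cre-treated and floxed cells in serum-replete medium for genes among the 10 highest and 10 lowest ratios of the secreted, membrane and transcription factor classes of 5 FPKM or more in either library, 1 library per condition. The gap between the points is the difference, from Sema3e (35.1 FPKM in Cre-treated and 1.76 FPKM in floxed cells) at the top of the secreted panel to Dkk3 (0.281 FPKM in Cre-treated and 221 FPKM in floxed cells) at its foot.

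At the cell surface, genes of tight and adherens junctions differed by family. Of 7 measured claudins, 4 were lower and none higher. Besides Cldn2, Cldn4 was 1.75 FPKM in Cre-treated and 34.8 FPKM in floxed cells, and Cldn1 was 6.26 FPKM in Cre-treated and 67.5 FPKM in floxed cells. Cldn19 was the most abundant of the lower claudins and barely passed 2-fold, at 89.6 FPKM in Cre-treated and 183 FPKM in floxed cells. Classical cadherins were lower in 4 of 9 cases and higher in none. Cdh6, a cadherin of the developing nephron, was 3.35 FPKM in Cre-treated and 58.7 FPKM in floxed cells, and the mesenchymal Cdh11 was 10.6 FPKM in Cre-treated and 109 FPKM in floxed cells. Of 22 other junction genes, desmosome and plaque genes among them, 4 were higher and 2 lower, 27.3% in all against 18.1% of all loci. Dsg2 (desmoglein 2) was 11.1 FPKM in Cre-treated and 1.47 FPKM in floxed cells, Pkp3 (plakophilin 3) was 10.8 FPKM in Cre-treated and 2.58 FPKM in floxed cells, and Cgn (cingulin) was 32.4 FPKM in Cre-treated and 6.37 FPKM in floxed cells. The lower ones were Jam3, an adhesion protein of tight junctions, at 3.23 FPKM in Cre-treated and 13.9 FPKM in floxed cells, and the polarity gene Pard6g, at 2.65 FPKM in Cre-treated and 9.06 FPKM in floxed cells. Of 14 integrins, 5 were lower and 1 higher. Itgb5 was 93.4 FPKM in Cre-treated and 236 FPKM in floxed cells, and the laminin receptor chain Itga7 was 17.9 FPKM in Cre-treated and 3.87 FPKM in floxed cells.

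Channels and transporters leaned lower in some families and were near even in others, against 11.1% of all loci lower and 7% higher. Of 9 potassium channel genes, 5 were lower and none higher, with a median of -1.21. Kcnj16, a subunit of basolateral inward rectifiers in the tubule, was 5.01 FPKM in Cre-treated and 101 FPKM in floxed cells. Of 41 sodium, calcium, chloride and TRP channel genes, 9 were lower and 1 higher. Ano1, a calcium-activated chloride channel, was 1.59 FPKM in Cre-treated and 40.7 FPKM in floxed cells. Scnn1g, a subunit of the epithelial sodium channel, was listed at 0 in Cre-treated cells and at 4.85 FPKM in floxed cells. The water channels exchanged places. Aqp5, a channel of glands and lung, was 7.39 FPKM in Cre-treated and 0.222 FPKM in floxed cells, whereas Aqp1 was 0.904 FPKM in Cre-treated and 20.3 FPKM in floxed cells. Slc16a1 (MCT1, a lactate carrier) was 26.7 FPKM in Cre-treated and 6.90 FPKM in floxed cells. Of 22 organic solute transporters, 8 were lower and none higher. Of 12 sugar and monocarboxylate transporters 4 were lower and 2 higher, and of 24 amino acid and cationic transporters 4 were lower and 3 higher. Ion transporters had 2 of 23 in each direction. Of 28 ABC transporters 1 was higher and 1 lower, and zinc, iron and copper transporters had 1 of 20 in each direction. These are 7.14% and 10% in all, below the 18.1% of all loci. The iron exporter Slc40a1 (ferroportin) was the lower one of the last group, at 1.46 FPKM in Cre-treated and 13.1 FPKM in floxed cells.

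Receptors were lower more often than higher in several families, against 11.1% of all loci lower and 7% higher, and leaned less or not at all in others. TNF receptors had 3 of 13 in each direction, and none of 4 Toll-like receptors passed 2-fold. Of 17 Frizzled and other Wnt receptors, 2 were lower and 1 higher, and of 20 receptor tyrosine kinases 5 were lower and 2 higher. Among 25 receptors for lipids, peptides, amines and nucleotides, 7 were lower and 3 higher. Of 27 orphan and adhesion G protein-coupled receptor genes, 10 were lower and none higher. Gpr124, a Wnt7 co-receptor, was 7.40 FPKM in Cre-treated and 139 FPKM in floxed cells, and Gpr56, which binds collagen III, was 52.9 FPKM in Cre-treated and 358 FPKM in floxed cells. Wnt7a and Gpr124 thus differed in opposite directions. Of 29 cytokine receptors, 10 were lower and 2 higher. The receptors of oncostatin M and leukaemia inhibitory factor were among the lower ones, with Osmr at 7.36 FPKM in Cre-treated and 38.2 FPKM in floxed cells and Lifr at 1.66 FPKM in Cre-treated and 7.996 FPKM in floxed cells. Ifngr1 and Ifngr2, the pair that forms the interferon-γ receptor, were 53.9 and 33.5 FPKM in Cre-treated cells, against 154 and 72.8 FPKM in floxed cells. Among Eph receptors and ephrins, 6 of 13 were lower and 1 higher. The higher one, Epha2, was 122.7 FPKM in Cre-treated and 20.5 FPKM in floxed cells. The neuropilins, which are semaphorin and VEGF co-receptors, split, with Nrp2 at 26.1 FPKM in Cre-treated and 4.08 FPKM in floxed cells and Nrp1 at 22.8 FPKM in Cre-treated and 84.5 FPKM in floxed cells. Of the Notch pathway, the ligand Jag1 was 19.1 FPKM in Cre-treated and 68.0 FPKM in floxed cells, and Dlk2 was 15.46 FPKM in Cre-treated and 1.69 FPKM in floxed cells.

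Surface glycoproteins and ectoenzymes gave further contrasts. Msln (mesothelin) was 135 FPKM in Cre-treated and 10.9 FPKM in floxed cells. Beside it, the mesothelial markers Lrrn4 and Wt1 were at 0 and under 0.3 FPKM in both libraries, and Upk3b was 3.73 FPKM in Cre-treated and 2.46 FPKM in floxed cells. The poliovirus receptor gene Pvr, an adhesion protein of the nectin type, was 76.7 FPKM in Cre-treated and 20.2 FPKM in floxed cells. Of 22 ectoenzyme genes, 9 were lower and 1 higher. Ggt1 (γ-glutamyl transferase), which breaks down extracellular glutathione, was 0.0553 FPKM in Cre-treated and 30.7 FPKM in floxed cells, and Enpep (aminopeptidase A), which cleaves angiotensin II, was 7.497 FPKM in Cre-treated and 28.4 FPKM in floxed cells. Tetraspanins, which organize membrane microdomains, were lower in 8 of 21 cases and higher in none. Tspan8 was 42.1 FPKM in Cre-treated and 248 FPKM in floxed cells.

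Transcription factors as a class were near the share of all loci, and their families varied. Of 287 Zfp-named zinc finger genes, 3 were higher and 13 lower, 5.57% in all against 18.1% of all loci. Of 27 Hox genes, 2 were higher and 4 lower, 22.2% in all and thus near the share of all loci. In the serum-starved pair 3 of 28 were higher and 1 lower. Both that were higher with serum belong to the last paralog group. Hoxc13 was 5.76 FPKM in Cre-treated and 0.369 FPKM in floxed cells, beside Hoxd13. All 4 that were lower with serum lie in the HoxB cluster, where Hoxb7 stayed under 2-fold. With so few calls, at a share near that of all loci, no pattern by position is read from them. Hoxb8 was 10.1 FPKM in Cre-treated and 54.0 FPKM in floxed cells, and Hoxb2 was 17.7 FPKM in Cre-treated and 53.5 FPKM in floxed cells. The AP-1 subunit Fosl1 (FRA1) was 63.5 FPKM in Cre-treated and 4.88 FPKM in floxed cells, and its relative Fosl2 (FRA2) was 12.3 FPKM in Cre-treated and 49.9 FPKM in floxed cells. Tead4 and Vgll3, a DNA-binding partner of YAP and a TEAD cofactor, were 21.8 and 40.4 FPKM in Cre-treated cells and 4.69 and 13.1 FPKM in floxed cells. The AP-2 factors Tfap2a and Tfap2b, regulators of ectoderm and distal nephron, were 20.9 and 11.6 FPKM in Cre-treated cells and 5.23 and 0.568 FPKM in floxed cells.

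The lower transcription factors included several of kidney and mesenchyme. Irx3, a nephron patterning gene, was 2.45 FPKM in Cre-treated and 39.3 FPKM in floxed cells, and its neighbour Irx5 was 1.74 FPKM in Cre-treated and 6.51 FPKM in floxed cells. Sox8 was 0.508 FPKM in Cre-treated and 24.1 FPKM in floxed cells. Ebf1 was 0.642 FPKM in Cre-treated and 11.2 FPKM in floxed cells. Nuclear receptors were lower in 8 of 29 cases and higher in 2, 34.5% in all against 18.1% of all loci. Vdr, the vitamin D receptor, was 0.0744 FPKM in Cre-treated and 7.18 FPKM in floxed cells, and the calcium-binding gene S100g (calbindin-D9k), which vitamin D induces in gut and kidney, was 2.68 FPKM in Cre-treated and 36.8 FPKM in floxed cells. Nr3c2, the mineralocorticoid receptor, was 0.118 FPKM in Cre-treated and 2.32 FPKM in floxed cells. C/EBP factors were lower in 3 of 6 cases, and HES and HEY factors, which act downstream of Notch, in 3 of 4. Other bHLH factors were lower in 8 of 34 cases and higher in none, 23.5% in all against 18.1% of all loci. The lower ones included Hif1a, at 51.0 FPKM in Cre-treated and 128 FPKM in floxed cells, and Sim2, at 39.5 FPKM in Cre-treated and 114 FPKM in floxed cells.

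Within the cytoskeleton every measured keratin passed 2-fold, 4 of 6 higher and 2 lower. Krt18, the type I partner with which Krt8 pairs in simple epithelia, was 89.1 FPKM in Cre-treated and 25.1 FPKM in floxed cells. The type II keratin Krt7, another partner of Krt18, was 525 FPKM in Cre-treated and 91.5 FPKM in floxed cells, and Krt80 was 31.8 FPKM in Cre-treated and 3.61 FPKM in floxed cells. Of the type II keratins Krt7 and Krt8, Krt7 had the higher FPKM in Cre-treated cells and Krt8 in floxed cells. Of 20 tubulins, 7 were higher and 3 lower. Tubb6 was 308 FPKM in Cre-treated and 93.0 FPKM in floxed cells. The close copies Tubb2a and Tubb2b were 2.18 and 15.01 FPKM in Cre-treated cells and 37.2 and 1.35 FPKM in floxed cells, and how the authors' estimate divided 50 bp reads between such copies is uncertain. Contractile genes were split. Acta2 (smooth muscle α-actin) was 387 FPKM in Cre-treated and 1459 FPKM in floxed cells, and Tpm2 was 10.3 FPKM in Cre-treated and 79.3 FPKM in floxed cells. Flnc (filamin C) was 188 FPKM in Cre-treated and 22.5 FPKM in floxed cells, and Ankrd1, a YAP target, was 786 FPKM in Cre-treated and 280.3 FPKM in floxed cells. In the serum-starved pair Acta2 was the higher one in Cre-treated cells, at 296 FPKM against 163 FPKM in floxed cells.

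Genes of retinoid metabolism, gathered here from several families after their values were seen, differed in both directions. Retinoic acid is made from vitamin A by oxidation to retinal and then to the acid. Rdh10, which makes retinal, was 26.3 FPKM in Cre-treated and 119 FPKM in floxed cells, and Dhrs3, which reduces retinal back to retinol, was 1.54 FPKM in Cre-treated and 105 FPKM in floxed cells. Aldh1a2, which makes the acid, was 2.98 FPKM in Cre-treated and 63.1 FPKM in floxed cells. Its relative Aldh1a1 took the opposite direction, at 13.7 FPKM in Cre-treated and 0.880 FPKM in floxed cells. Its neighbour Aldh1a7 was 2.80 FPKM in Cre-treated and 0.885 FPKM in floxed cells, and Dhrs9, a retinol dehydrogenase, was 2.01 FPKM in Cre-treated and 0.216 FPKM in floxed cells. Stra6, which takes up retinol, was 2.28 FPKM in Cre-treated and 8.39 FPKM in floxed cells, and Crabp2, which carries the acid to the nucleus, was 0.259 FPKM in Cre-treated and 2.47 FPKM in floxed cells. Rarb, a retinoic acid receptor that is itself induced by the acid, was 1.10 FPKM in Cre-treated and 5.64 FPKM in floxed cells. In the family of retinoid and fatty acid binding genes as a whole, 6 of 16 were lower and 1 higher, 43.8% in all against 18.1% of all loci.

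Glutathione genes were split. Mgst1, a microsomal transferase, was 19.8 FPKM in Cre-treated and 143 FPKM in floxed cells, and Gsta3 was 0.0519 FPKM in Cre-treated and 13.7 FPKM in floxed cells. Gstm2 was 90.2 FPKM in Cre-treated and 18.97 FPKM in floxed cells. In all, 4 of 21 were higher and 5 lower. The metallothioneins Mt1 and Mt2, which bind zinc and copper, were 92.7 and 71.6 FPKM in Cre-treated cells and 229.9 and 165 FPKM in floxed cells. Imprinted genes differed in both directions. The paternally expressed Ndn (necdin), a growth suppressor of neurons, was 0.382 FPKM in Cre-treated and 25.9 FPKM in floxed cells, against the opposite pattern of Sgce and Peg10, and Grb10 was 3.02 FPKM in Cre-treated and 24.05 FPKM in floxed cells. Both libraries came from male cells by their Y-linked genes, with Ddx3y at 27.3 FPKM in Cre-treated and 28.2 FPKM in floxed cells.

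Called genes also lay side by side on the chromosomes. Among protein-coding genes past 1 FPKM, 40 runs of at least 3 neighbours were called in the same direction, 6 of them higher and 34 lower, with 137 genes in all. Of all such genes 6.16% were higher and 10.7% lower, and how many runs these shares alone would give was not tested. In 8 of the runs some genes carry identical coordinates, all 3 genes in 1 of them, so that their order is not given, and 34 runs hold at least 3 distinct loci. Paralogs often share such runs, and reads of close copies may be divided between them. The longest run held 9 genes, all higher in Cre-treated cells, on chromosome 3 across 2.96 Mb of the epidermal differentiation complex, a cluster of S100 and cornified envelope genes. S100a4 was 529 FPKM in Cre-treated and 75.0 FPKM in floxed cells. S100a6 was 6184 FPKM in Cre-treated and 1727 FPKM in floxed cells, and S100a10, which binds annexin A2, was 789 FPKM in Cre-treated and 202 FPKM in floxed cells. The run held envelope genes of skin as well as S100 genes. Sprr1a, a cross-linked precursor of the cornified envelope, was 449 FPKM in Cre-treated and 139 FPKM in floxed cells, and the late envelope gene Lce3c was 11.8 FPKM in Cre-treated and 0.106 FPKM in floxed cells. Of the 9 genes, 7 were also at least 2-fold higher in the serum-starved Cre-treated library.

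**Figure D4:**
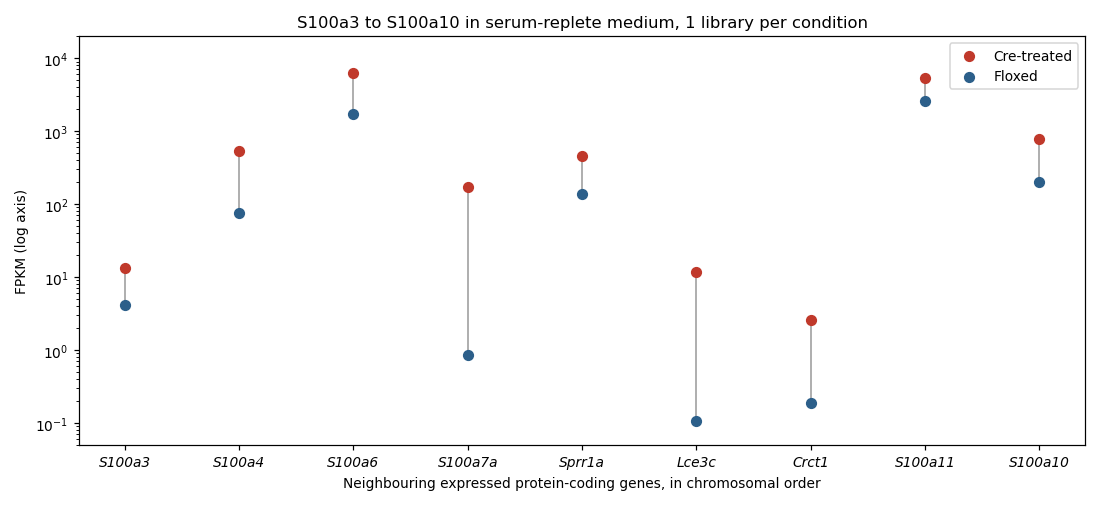
FPKM on a log axis in Cre-treated and floxed cells in serum-replete medium for the 9 neighbouring expressed genes from S100a3 to S100a10 on chromosome 3, in chromosomal order, 1 library per condition. The point of Cre-treated cells lies above that of floxed cells for every gene, with the widest gap at S100a7a (172 FPKM in Cre-treated and 0.853 FPKM in floxed cells).

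The 200 bases before the start site of 4 genes of this run, and of Gpx3 as the gene with the lowest ratio, show what these promoters hold. The 4 were picked after their matches were seen. They are RefSeq sequences of GRCm38.p6, which has the coordinates of mm10, printed 5′ to 3′ on the gene's strand. Capitals mark matches on either strand to the AP-1 motif TGANTCA and to the TEAD motif GGAATG, chosen with the values of Fosl1 and Tead4 known.
S100a7a, chr3:90654102-90654301, plus strand: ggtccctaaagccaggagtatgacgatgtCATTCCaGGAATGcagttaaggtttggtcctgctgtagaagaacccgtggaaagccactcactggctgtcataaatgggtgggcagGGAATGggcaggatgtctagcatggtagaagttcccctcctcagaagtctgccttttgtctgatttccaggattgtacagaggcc
Sprr1a, chr3:92485882-92486081, minus strand: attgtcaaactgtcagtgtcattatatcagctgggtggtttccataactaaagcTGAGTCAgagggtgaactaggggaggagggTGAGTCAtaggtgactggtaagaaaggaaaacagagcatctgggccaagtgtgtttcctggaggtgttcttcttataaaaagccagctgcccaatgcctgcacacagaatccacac
S100a11, chr3:93520296-93520495, plus strand: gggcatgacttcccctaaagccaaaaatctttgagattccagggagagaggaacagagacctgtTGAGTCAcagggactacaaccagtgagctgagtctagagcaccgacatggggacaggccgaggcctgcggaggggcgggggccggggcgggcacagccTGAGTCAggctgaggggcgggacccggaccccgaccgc
S100a4, chr3:90603570-90603769, plus strand: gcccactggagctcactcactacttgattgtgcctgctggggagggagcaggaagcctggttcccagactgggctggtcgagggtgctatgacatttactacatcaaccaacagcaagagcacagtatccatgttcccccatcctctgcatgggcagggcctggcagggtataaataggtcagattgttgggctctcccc
Gpx3, chr11:54902654-54902853, plus strand: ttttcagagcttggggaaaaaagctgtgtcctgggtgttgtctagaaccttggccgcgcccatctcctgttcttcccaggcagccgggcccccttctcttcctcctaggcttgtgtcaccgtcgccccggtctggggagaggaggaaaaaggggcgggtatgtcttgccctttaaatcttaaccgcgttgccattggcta
Sprr1a and S100a11 each had 2 AP-1 matches, S100a7a had 3 TEAD matches, and S100a4 and Gpx3 had none of either. Of the 9 genes of the run, 7 had a promoter in the table, and in the 250 bases before their start sites 2 held the AP-1 motif, 2 the TEAD motif and 3 neither. In the 250 bases before the start sites of 6969 genes, out of 10939, whose RefSeq start lay within 2000 bases of the edge of the deposited locus, 3.8% held the AP-1 motif and 10.2% the TEAD motif. Among 435 of these genes that were higher in Cre-treated cells, 7.13% held the AP-1 motif and 13.1% the TEAD motif, and among 681 that were lower the shares were 4.55% and 11.6%. These shares are a description, and a match is not a bound site.

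Some runs of lower genes lay in clusters of related genes. On chromosome 12, 6 lower neighbours reached from Ppp4r4, a phosphatase subunit gene, to Serpina3n in the serpin cluster, with Serpina10 at 2.13 FPKM in Cre-treated and 40.9 FPKM in floxed cells. The Ly6 cluster of chromosome 15, which encodes GPI-anchored surface proteins, gave 5, with Ly6a (Sca-1) at 102 FPKM in Cre-treated and 746 FPKM in floxed cells and Ly6e at 36.5 FPKM in Cre-treated and 195 FPKM in floxed cells. Ly6a, Ly6c1 and Ly6f are close copies. Chromosome 16, where 20.6% of protein-coding genes were lower against 10.7% over all chromosomes, gave 3 runs. Among them were the 5 genes from Ubald1 to Rogdi and the 4 from Sim2 to Pigp. The ratios in these longer runs were small, with log2 values between -1.51 and -1.04. The remaining run held the carbonyl reductases Cbr1 and Cbr3, which were 11.3 and 0.204 FPKM in Cre-treated cells, against 37.3 and 14.8 FPKM in floxed cells.

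In 55 of the 111 families at least 1 member with 5 FPKM or more was higher and another lower. Each higher member was paired with each lower one of its family, which gave 299 pairs from 106 higher and 152 lower genes. With 7% of all loci higher and 11.1% lower, a large family can hold both directions by these shares alone. Krt7 and Krt8, Fosl1 and Fosl2, Nrp2 and Nrp1, Wnt7a and Wnt16, Nog and Fst, Csf1 and Il34, and Aqp5 and Aqp1, described above, are pairs of this kind. A complete exchange, at least 10 FPKM in 1 library and under 0.5 FPKM in the other, was found for 53 protein-coding genes once 8 loci with failed estimates were left out. The 53 still include gene models from which no difference is read, such as Gm17364, Gm11084 and Gm21961. Of these 53, 10 were on the side of Cre-treated cells and 43 on the side of floxed cells, and 43 were called in the same direction in the serum-starved pair, which came from the same lines and does not replicate the comparison.

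Most calls made with serum were not made without it. Of 884 loci at least 2-fold higher in Cre-treated cells with serum, 361 were also higher without it, and of 1408 lower loci 554 were also lower. Without serum, 8.02% of all loci were higher and 6.64% lower. Opposite directions were taken by 36 loci higher with serum and lower without it, and by 35 of the reverse. Among protein-coding genes, 9 did so with at least 5 FPKM in both pairs, including Gm21961, which is listed at 0 in floxed cells with serum and is not read. Lox, lower with serum, was 104 FPKM in Cre-treated and 23.7 FPKM in floxed cells without it. Plau went the other way, at 390 FPKM in Cre-treated and 1126 FPKM in floxed cells without serum. No test of these differences was possible, and each medium had its own normalization.

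**Figure D5:**
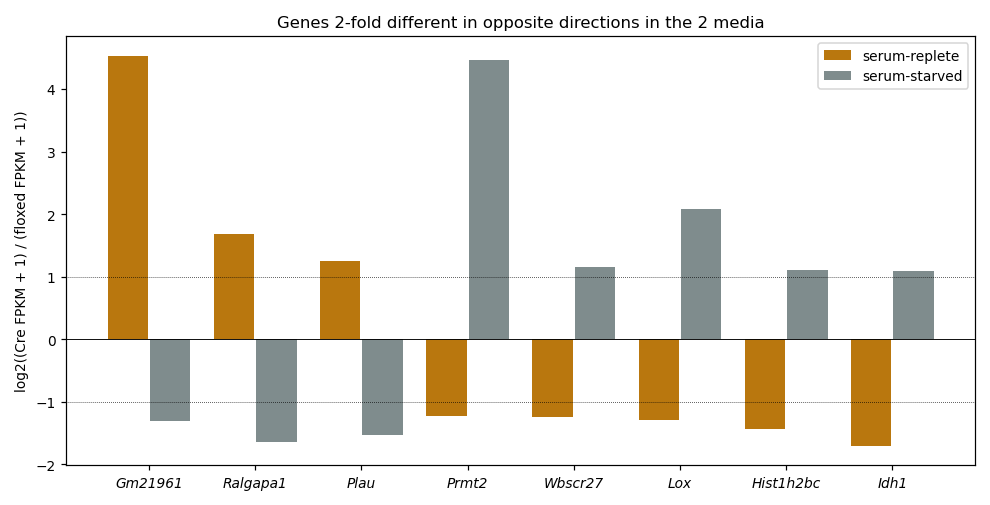
Log2 ratio of FPKM + 1 in Cre-treated over floxed cells in serum-replete (left bar) and serum-starved (right bar) medium for genes at least 2-fold different in opposite directions, with dotted lines at 2-fold. Lox is at -1.29 with serum and 2.08 without it, and each bar rests on 1 library per genotype.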

How the data were processed

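RNA from 1 culture population per condition was sequenced, and the authors deposited FPKM values per gene locus for each pair of libraries. Per the submitters' processing notes, reads were handled with TopHat2, Cufflinks and Cuffdiff on mm10, with versions not given in the sources used here. Columns of the authors' own comparison (fold change, test statistic, p, q and significance) and their lists of selected genes were not used. The ratio was log2 of (FPKM + 1) in Cre-treated over floxed cells, for loci with at least 1 FPKM in either library, and 2-fold was the limit for a call. With 1 library per condition no test was run and no error can be given. Family members and gene lists were chosen with earlier results of these data known. Genes selected for description were Tgfbr2, the 12 highest and 12 lowest ratios at 5 FPKM or more, the 10 highest and lowest of each class, up to 4 per family, the markers, and members of runs of at least 4 genes. Members of shorter runs and of opposite pairs could also be named, and which of them were, like all others named, was chosen after their values were seen: Aldh1a7, Ankrd1, Cbr1, Ccl2, the Col4 genes, Crabp2, Csf1, Dhrs9, Efemp1, Gstm2, Hbegf, Ifngr2, Itgb5, Nbl1, Nrp1, Pard6g, Sostdc1, Tgfbi, Tgfbr1, Tgfb1 to Tgfb3 and Tubb6. Low FPKM values were compared with steps of single reads in transcripts of at least 1500 bases, assuming fragments of 200 bases. Of these, 58.0% in the Cre-treated library and 59.8% in the floxed library lay within 0.1 of a whole step, so reads were not recovered. The scripts (Python 3.11.15, pandas 2.3.3, numpy 2.4.6) were tested on simulated data. Alternatives were other pseudocounts, filters, centring and scaling, and, chosen after seeing the data, leaving out loci that Cuffdiff marked as failed. Some single-gene results are not reported here.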

Additional observations from a re-analysis of the deposited data

Results flagged for a closer look

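The genes below were at least 2-fold different in opposite directions with and without serum, in tables normalized separately and with 1 library per condition, and the difference was not tested for any. The value given for each is the log2 ratio with serum minus that without. For Plau, the plasminogen activator urokinase, it was 2.77. For Lox, which cross-links collagen, it was -3.38. Idh1, the cytosolic isocitrate dehydrogenase, had -2.80, and the arginine methyltransferase gene Prmt2 had -5.70. For the histone gene Hist1h2bc, one of many near-identical copies, it was -2.53. Ralgapa1 had 3.33 and Wbscr27 had -2.40. Gm21961 had 5.84, but it is listed at 0 in floxed cells with serum.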

How the results depend on the processing

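No paired analysis was possible because each condition was 1 library, and for the same reason no replicate could be left out. Over the alternatives the count of loci at least 2-fold higher lay between 674 and 1098 (884 as reported) and that of loci at least 2-fold lower between 981 and 1814 (1408 as reported). With at least 5 FPKM in either library, 93 membrane genes were lower, against 142, since fewer genes were counted. With under 0.1 FPKM in the lower library, 30 genes took the place of 61 in the count of complete exchanges, and with at least 4 neighbours 7 runs took the place of 40. Without the loci of failed estimate, 879 loci were higher and 1403 lower. Of the 497 selected genes, 398 were at least 2-fold different, and centring on the median gene left 5 of them under 2-fold. None of them reversed, but none could. Pseudocounts and filters cannot change the direction of a ratio, and centring and rescaling shifted all ratios by far less than 2-fold. Of the 111 family medians, 19 were at least 1 in size and none reversed, but without a filter on low values 2 were. Rescaling to equal FPKM sums shifted the log2 ratios by -0.004. Depth limits low values, since 1 read in a transcript of 2 kb was worth about 0.0123 FPKM in Cre-treated and 0.0155 FPKM in floxed cells.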

Other observations

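The ratios were not even over the chromosomes. On chromosome 16, 345 protein-coding genes had a median log2 ratio of -0.41, with 10 higher and 71 (20.6%) lower in Cre-treated cells, against 10.7% lower among all protein-coding genes with a row of their own, and the median was -0.36 in the serum-starved pair. On chromosome 4, 699 genes had a median of 0.29, with 56 higher and 46 lower, and the median without serum was 0.39. Chromosome 19 had a median of -0.24, chromosome 8 of -0.23 and chromosome 3 of 0.19. These are values of 1 library per condition, and their cause was not tested.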
